A study of Homo sapiens with 6 samples.

Results

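Antisense noncoding RNAs that were expressed in RPMI-8402 cells were examined 72 hours after doxycycline was added to switch on guide RNAs against MYC. They were chosen as the genes whose name ends in -AS and a number and whose raw read counts summed to 60 or more over the 6 samples. This gave 254 genes of 956 with such a name, out of 63677 genes in the table. Of the 702 names left out, 405 had no count in any sample. RPMI-8402 is a human line of T cell acute lymphoblastic leukaemia (T-ALL). All 6 samples came from this line with stable Cas9 and carried the same label for genotype, MYC_KO. The 3 DOX samples were given doxycycline, which induces the guides, and the 3 DMSO samples were given the solvent. Nothing in the labels names a sample with doxycycline and no guide, a clone or separate cultures, so a p-value here reflects just the variation among these 6 libraries, part or all of which may be technical.

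An antisense RNA is transcribed from the DNA strand opposite another gene, its sense gene, and is named after it. Some antisense RNAs are known to act on the chromatin or the mRNA of the sense gene, others act elsewhere in the cell or start divergently from the same promoter as the sense gene, and for many no function is known. MYC with its partner MAX binds E-boxes in promoters and drives genes of growth, ribosome building and replication, many of which have an antisense neighbour.

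DOX samples held between 25819386 and 26214598 counts and DMSO samples between 23121255 and 25412493, so every DOX library was deeper than every DMSO library. Levels are given as CPM, a gene's share of the counts of its library, after TMM scaling, in the order of replicates 1, 2 and 3. MYC, the targeted gene, stood at 459, 431 and 431 CPM in DOX, against 409, 422 and 407 CPM in DMSO. Its log2 fold change was 0.09 (edgeR adjusted p = 0.160), so the RNA did not pass the test in either direction; it passed as higher with upper-quartile scaling (0.14, edgeR adjusted p = 0.0357) and by library size alone (0.14, edgeR adjusted p = 0.0281). Counts do not show whether the guides cut. Between 23932 and 24573 genes had a count in DOX libraries, against 23188 to 23310 in DMSO libraries. The part of depth in this difference was not tested. Of 12 T-lineage markers, 11 stood at 0.972 CPM or more in every sample, with CD3E at 888 to 1017 CPM in DOX and 923 to 1030 CPM in DMSO, and LMO2 was at or under 0.152 CPM. Of the 12, CD7 and CD5 were higher in DOX, at 0.48 (edgeR adjusted p = 6.52e-07) and 0.23 (edgeR adjusted p = 0.000938), and CD3G was lower, at -0.24 (edgeR adjusted p = 0.00092). Of 5 B-lineage markers 4 had counts, with a summed level of 16.2 to 17.1 CPM in DOX and 11.5 to 12.9 CPM in DMSO, and MS4A1 had 0. The 5 myeloid markers summed to 2.17 to 2.21 CPM in DOX and 1.07 to 1.27 CPM in DMSO, and the 4 epithelial or stromal ones, with EPCAM and COL1A2 at 0, to 47.3 to 52.9 CPM in DOX and 39.9 to 40.2 CPM in DMSO, nearly all from COL1A1. Of 3 natural killer markers 2 had counts, summing to 6.37 to 6.95 CPM in DOX and 5.33 to 5.66 CPM in DMSO, and the erythroid markers HBB and HBG1 had 0 in all samples. Their part in the results was not tested. In bulk RNA, fewer cells of a type and less RNA per cell cannot be told apart.

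The promoter windows of 4 antisense genes are shown because these genes carry the main patterns described here. TMPO-AS1 and RNASEH1-AS1 were lower with their sense genes, PSMG3-AS1 was higher without its sense gene, and EIF3J-AS1 was not called beside a sense gene that was lower. They were chosen after their values were seen. Each window runs from 250 bases before to 50 bases after the start in RefSeq (GRCh38.p14), 5′ to 3′ on the gene's own strand, at chr12:98516177-98516476 on the minus strand, chr2:3558136-3558435 on the plus strand, chr7:1569823-1570122 on the plus strand and chr15:44536874-44537173 on the minus strand. Capitals mark CCAAT and GGGCGG on either strand.
TMPO-AS1: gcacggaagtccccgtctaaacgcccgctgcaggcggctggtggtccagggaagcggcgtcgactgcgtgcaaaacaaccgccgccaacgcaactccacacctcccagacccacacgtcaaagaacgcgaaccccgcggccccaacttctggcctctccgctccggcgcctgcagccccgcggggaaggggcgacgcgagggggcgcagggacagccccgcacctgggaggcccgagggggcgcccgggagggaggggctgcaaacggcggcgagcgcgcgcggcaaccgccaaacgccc
RNASEH1-AS1: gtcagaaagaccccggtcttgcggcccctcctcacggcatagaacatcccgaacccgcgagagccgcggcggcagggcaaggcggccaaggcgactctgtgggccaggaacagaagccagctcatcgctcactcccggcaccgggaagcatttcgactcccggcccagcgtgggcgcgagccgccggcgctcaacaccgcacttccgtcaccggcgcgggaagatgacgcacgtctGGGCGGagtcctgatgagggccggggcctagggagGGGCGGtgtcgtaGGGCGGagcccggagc
PSMG3-AS1: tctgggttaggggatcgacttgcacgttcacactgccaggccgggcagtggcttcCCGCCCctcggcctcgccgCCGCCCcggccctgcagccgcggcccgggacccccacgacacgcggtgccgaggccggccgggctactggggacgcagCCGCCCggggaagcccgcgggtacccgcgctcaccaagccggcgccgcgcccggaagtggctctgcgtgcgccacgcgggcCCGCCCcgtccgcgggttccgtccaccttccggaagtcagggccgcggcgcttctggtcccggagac
EIF3J-AS1: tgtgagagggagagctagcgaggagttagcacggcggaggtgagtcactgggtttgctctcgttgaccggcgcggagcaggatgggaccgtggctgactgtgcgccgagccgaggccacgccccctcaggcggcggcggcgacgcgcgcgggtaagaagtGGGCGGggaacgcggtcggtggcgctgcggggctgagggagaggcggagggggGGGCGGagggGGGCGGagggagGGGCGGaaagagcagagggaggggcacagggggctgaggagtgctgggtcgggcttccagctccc
TMPO-AS1 holds neither motif, RNASEH1-AS1 holds GGGCGG 3 times, and PSMG3-AS1 and EIF3J-AS1 hold it 4 times each, counting either strand. RefSeq lists RNASEH1-AS1 and EIF3J-AS1 as RNASEH1-DT and EIF3J-DT, where DT stands for divergent transcript. The RNASEH1-AS1 window shares 152 of its 300 bases with the window of RNASEH1, and the EIF3J-AS1 window shares 277 with that of EIF3J.

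RefSeq gave such a window for 204 of the 254 antisense RNAs, to be set beside 27305 promoters of all genes. The E-box CACGTG stood in 7.84% of the antisense promoters and in 7.43% of all promoters. None of the matched promoters of called genes held it, neither the 27 for the 37 antisense RNAs that were higher in DOX nor the 7 for the 8 that were lower. At a share of 7.84%, few of so small a number of windows would be expected to hold it. No lack of the motif can therefore be read from this, and other forms of the E-box were not searched. CCAAT stood in 34.3% of antisense promoters and 35.7% of all, GGGCGG in 61.3% and 44.6%, and TATAAA in 3.43% and 12%. All motifs were searched on both strands and none of the 4 overlaps another as a word. The antisense promoters had a median GC content of 65.0% and a median of 25 CG dinucleotides, against 58.3% and 14 for all promoters. These are descriptions of the letters in the windows, and windows of divergent pairs share bases. The antisense RNAs were chosen for being expressed, while the 27305 promoters were not limited to genes expressed in these cells. Whether the differences go with antisense genes or with expressed genes was therefore not tested.

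Most antisense RNAs were rare. Their mean level ranged between 0.396 and 310 CPM with a median of 2.27 CPM, 76 were under 1 CPM and 45 at 10 CPM or more. Together they took 0.240%, 0.246% and 0.244% of the counts in DOX, against 0.234%, 0.229% and 0.239% in DMSO, and summed to 2403 ± 20.2 CPM in DOX and 2376 ± 29.8 CPM in DMSO (SD, n = 3 each). The ranges of the sums overlapped between the groups. The 8 highest held 45.8% of the summed CPM in DOX and 47.1% in DMSO.

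Among these 8, FAM211A-AS1 is a host gene of small nucleolar RNAs, also named SNHG29 in RefSeq. It stood at 307, 309.9 and 325 CPM in DOX, against 317, 311 and 288 CPM in DMSO, with a log2 fold change of 0.04 (SE 0.0505, edgeR adjusted p = 0.571). It was not called, but rose by 0.19 with GC content and length corrected (edgeR adjusted p = 0.00302). FGD5-AS1, a noncoding RNA studied in many tumours, stood at 234, 262 and 248 CPM in DOX, against 256, 268 and 271 CPM in DMSO, and OIP5-AS1, a conserved noncoding RNA also known as cyrano, at 207, 225 and 225 CPM in DOX, against 233, 202 and 243 CPM in DMSO. Neither was called, at -0.10 (edgeR adjusted p = 0.162) and -0.05 (edgeR adjusted p = 0.596), and the groups overlapped for both. THAP9-AS1 (69.6 to 72.7 CPM in DOX, 70.6 to 74.8 CPM in DMSO), CTBP1-AS2 (56.6 to 62.1 CPM in DOX, 59.4 to 62.6 CPM in DMSO) and PSMD5-AS1 (37.3 to 40.6 CPM in DOX, 37.5 to 44.5 CPM in DMSO) were not called either. Their log2 fold changes were -0.03 (edgeR adjusted p = 0.662), -0.05 (edgeR adjusted p = 0.568) and -0.08 (edgeR adjusted p = 0.386). GENCODE types PSMD5-AS1 as a transcribed unitary pseudogene, under the name CUTALP. The other 2 of the 8 changed. MMP24-AS1, which GENCODE lists as a small protein-coding gene, rose, and TMPO-AS1 fell. MMP24-AS1 stood at 101, 100.0 and 96.9 CPM in DOX, against 85.1, 88.4 and 77.7 CPM in DMSO, a log2 fold change of 0.24 (SE 0.0540, edgeR adjusted p = 0.00135), with no overlap between the groups and a call under all 13 alternative fits. Its sense gene MMP24, a membrane metalloproteinase, was at 1.01 CPM or less in every sample.

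Across the antisense RNAs, rises outnumbered falls with doxycycline. Of 249 that passed the filter on low counts, 37 were higher and 8 lower in DOX (edgeR adjusted p under 0.05), and 204 were not called. Among all 15492 genes tested, 13.8% were higher and 15.5% lower, which compares with 14.9% and 3.21% of the antisense RNAs. The median log2 fold change was 0.11 for antisense RNAs, with 157 above 0 and 92 below, and -0.00 for all genes. Counting the genes whose 3 DOX samples lay all above or all below the 3 DMSO samples gave 55 higher (22.1%) and 18 lower (7.23%), against 20.7% and 21.0% of all genes. The 5 that the filter left untested were PRMT5-AS1, ST8SIA6-AS1, SH3RF3-AS1, PHKA2-AS1 and KCNJ2-AS1.

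Calls and fold changes moved with the level of a gene, as the plot of change by level shows. Under a mean of 0 on the log2 CPM scale, 5 of 64 antisense RNAs were higher (7.81%) and 0 lower by edgeR (1 at an unadjusted p under 0.05; DESeq2 gave none of them an adjusted p), beside 8.19% and 0.828% of 2052 genes at that level. Between 0 and 2, 6 of 91 were higher (6.59%) and 0 lower by edgeR (0 also at an unadjusted p under 0.05, and 0 of 88 by DESeq2), beside 14.0% and 1.76% of 2559 genes. Between 2 and 4, 20 of 62 were higher (32.3%) and 3 lower (4.84%), beside 17.6% and 9.44% of 2743 genes. Over 4, 6 of 32 were higher (18.8%) and 5 lower (15.6%), beside 13.9% and 25.6% of 8138 genes. In the lowest band the share of rises was close to that of all genes at that level. With GC content and length corrected, 36 of 245 antisense RNAs were higher and 5 lower, beside 10.8% and 11.4% of 15036 genes, and their median log2 fold change was 0.18, against 0.01 for all genes. In the authors' deposited table, 13 antisense RNAs were higher and 5 lower of 200 with an adjusted p-value, beside 9.79% and 15.6% of 13767 genes, and all 18 were also called by edgeR in the same direction.

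**Figure D1:**
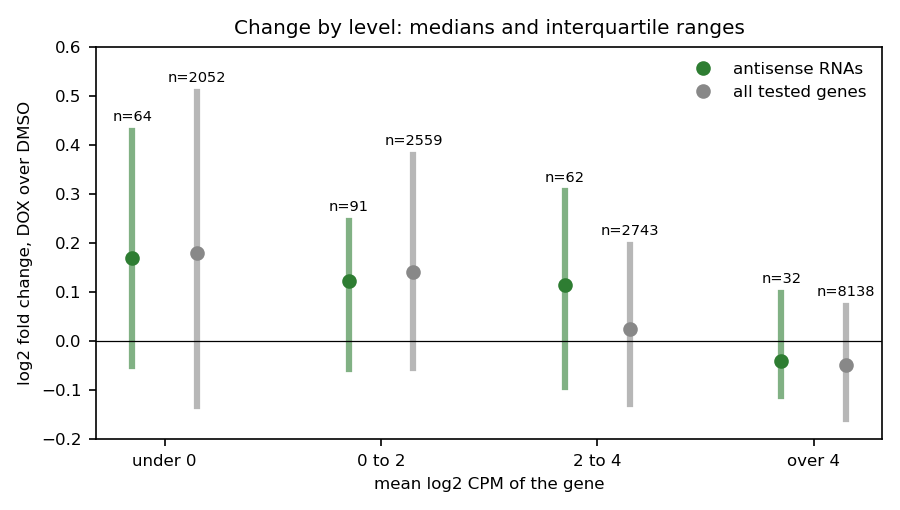
Median log2 fold change, DOX over DMSO (vertical axis), of antisense RNAs and of all tested genes in 4 bands of mean log2 CPM (horizontal axis); bars are interquartile ranges over genes and n is the number of genes. In the band between 2 and 4 the antisense median was 0.12 and that of all genes 0.02, while in the other bands the antisense median and that of all genes were 0.17 and 0.18, 0.12 and 0.14, and -0.04 and -0.05.

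Rises reached log2 fold changes between 0.20 and 1.30 with a median of 0.35, and 10 of the 37 were at least 1.5-fold. The rises named next belong to the 10 largest among calls without overlap between groups, a set that differs in part from those 10. Of them, RNF219-AS1 had the smallest adjusted p. Its sense gene RNF219 encodes a ubiquitin ligase that acts at replication origins. RNF219-AS1 stood at 4.21, 4.04 and 4.30 CPM in DOX, against 1.94, 2.60 and 2.36 CPM in DMSO, with means of 4.18 ± 0.131 CPM and 2.30 ± 0.333 CPM (n = 3 each, SD). This was a log2 fold change of 0.86 (SE 0.151, edgeR adjusted p = 0.000136). Every DOX sample lay above every DMSO sample, and the call held in all 13 alternative fits. LENG8-AS1 stood at 3.91, 3.16 and 2.84 CPM in DOX, against 1.78, 2.52 and 1.62 CPM in DMSO, a log2 fold change of 0.74 (SE 0.182, edgeR adjusted p = 0.00329). XXYLT1-AS2 lies in the body of XXYLT1, a xylosyltransferase that modifies NOTCH receptors, and stood at 5.35, 4.46 and 4.41 CPM in DOX, against 2.90, 3.22 and 3.06 CPM in DMSO, a log2 fold change of 0.63 (SE 0.139, edgeR adjusted p = 0.00126). EXTL3-AS1, named after a glycosyltransferase of heparan sulphate synthesis, stood at 5.85, 4.54 and 4.52 CPM in DOX, against 2.90, 3.31 and 3.62 CPM in DMSO, a log2 fold change of 0.60 (SE 0.143, edgeR adjusted p = 0.00242). These 3 also showed no overlap between groups and kept their call in all 13 alternatives.

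A further 5 of the 10 largest rises without overlap had larger adjusted p-values. ITPR1-AS1, opposite the calcium channel of the endoplasmic reticulum ITPR1, stood at 0.493, 0.801 and 0.673 CPM in DOX, against 0.238, 0.413 and 0.131 CPM in DMSO, a log2 fold change of 1.30 (SE 0.397, edgeR adjusted p = 0.0147). ITPR1 was called higher too, at 0.24 (edgeR adjusted p = 0.00102). CACTIN-AS1 stood at 0.683, 0.762 and 0.561 CPM in DOX, against 0.357, 0.207 and 0.437 CPM in DMSO, a log2 fold change of 1.0 (SE 0.358, edgeR adjusted p = 0.0368). HLA-F-AS1, from the class I region of the major histocompatibility complex, where reads can be shared with near-identical copies, stood at 0.911, 1.26 and 1.08 CPM in DOX, against 0.674, 0.702 and 0.568 CPM in DMSO, at 0.73 (edgeR adjusted p = 0.0431). CYP4A22-AS1, named after a gene of the cytochrome P450 family, stood at 1.40, 1.56 and 1.31 CPM in DOX, against 0.992, 1.03 and 0.568 CPM in DMSO, at 0.71 (edgeR adjusted p = 0.0347). PROX1-AS1, beside the homeobox factor PROX1, stood at 3.34, 2.48 and 2.43 CPM in DOX, against 1.86, 1.90 and 1.75 CPM in DMSO, at 0.58 (edgeR adjusted p = 0.0168), with PROX1 higher at 0.94 (edgeR adjusted p = 6.11e-05). None of these groups overlapped. With all 6 samples, DESeq2 called none of the 5. The DESeq2 adjusted p was 0.139 for CYP4A22-AS1 and 0.0841 for PROX1-AS1, and there was none for ITPR1-AS1, CACTIN-AS1 and HLA-F-AS1. With no filter on low counts the edgeR adjusted p was 0.0669 for HLA-F-AS1 and 0.0574 for CACTIN-AS1. With a replicate block it was 0.0550 for HLA-F-AS1. In fits without 1 library, which hold fewer samples, each of the 5 calls was lost at least once, and the direction stayed the same in all of them. DOX 2 here stands for DOX replicate 2, and so on, and the log2 fold change of that fit follows in parentheses. The edgeR adjusted p became 0.0697 lacking DOX 2 (1.14), 0.0635 lacking DMSO 1 (1.23) and 0.0866 lacking DMSO 3 (1.0) for ITPR1-AS1, and 0.123 lacking DOX 1 (0.42) for PROX1-AS1. It became 0.0834 lacking DOX 1 (0.98), 0.122 lacking DOX 2 (0.89), 0.0819 lacking DMSO 1 (1.06) and 0.172 lacking DMSO 2 (0.75) for CACTIN-AS1, whose call also ended with GC content and length corrected (edgeR adjusted p = 0.0851). It became 0.163 lacking DOX 2 (0.61), 0.0940 lacking DOX 3 (0.73), 0.0917 lacking DMSO 1 (0.76), 0.0723 lacking DMSO 2 (0.79) and 0.132 lacking DMSO 3 (0.65) for HLA-F-AS1. It became 0.0664 lacking DOX 1 (0.72), 0.108 lacking DOX 2 (0.64), 0.0510 lacking DOX 3 (0.77) and 0.181 lacking DMSO 3 (0.49) for CYP4A22-AS1.

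**Figure D2:**
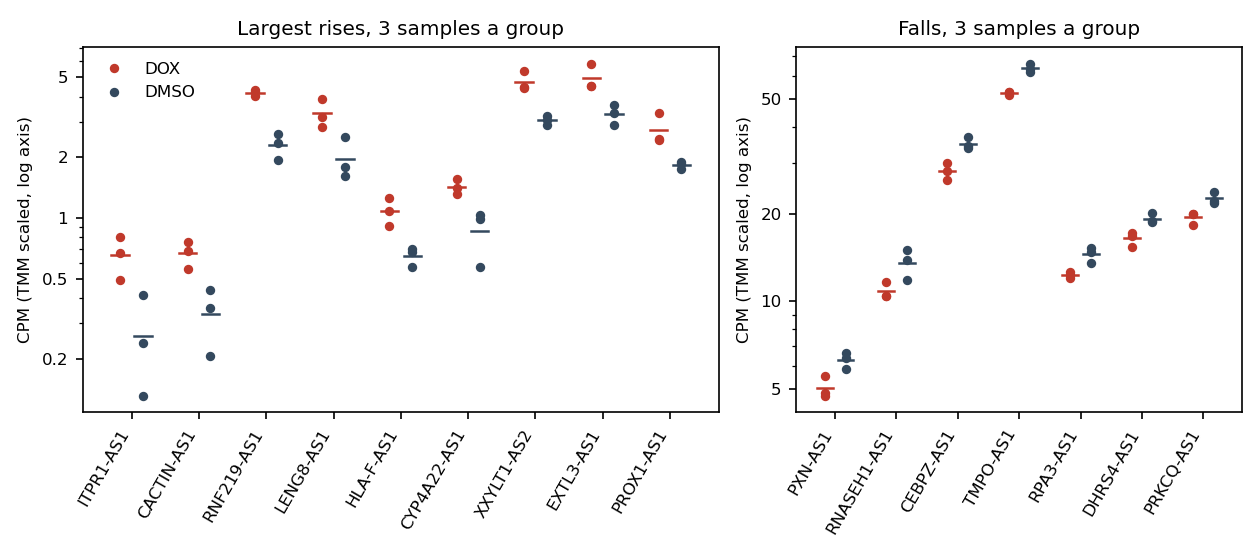
CPM with TMM scaling on a log axis (vertical) of 9 of the 10 largest rises without overlap and of the 7 falls without overlap (horizontal). DOX is left of DMSO, points are the 3 samples of a group and lines their means. No DOX point overlaps the DMSO points of the same gene, as the genes were chosen for this. ITPR1-AS1 and CACTIN-AS1 lie under 1 CPM in every sample, and the falls lie between 4.73 and 66.1 CPM.

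Falls were smaller, with log2 fold changes between -0.33 and -0.22, and 5 of the 8 paired with a sense gene that was lower as well. TMPO-AS1 starts near and overlaps TMPO, which encodes a protein of the nuclear lamina. It stood at 52.7, 52.7 and 51.5 CPM in DOX, against 62.0, 63.3 and 66.1 CPM in DMSO, a log2 fold change of -0.29 (SE 0.0542, edgeR adjusted p = 0.000323). TMPO itself stood at 436, 473 and 464 CPM in DOX, against 589, 551 and 597 CPM in DMSO, at -0.34 (edgeR adjusted p = 2.93e-05). Both members of the pair were lower in every DOX sample, and TMPO-AS1 was the single fall called in all 13 alternatives. RNASEH1-AS1, beside the gene of the enzyme that digests RNA in RNA-DNA hybrids, stood at 10.4, 11.6 and 10.4 CPM in DOX, against 11.8, 15 and 13.8 CPM in DMSO, a log2 fold change of -0.32 (SE 0.0925, edgeR adjusted p = 0.0101), and RNASEH1 was at -0.31 (edgeR adjusted p = 0.00131). Without DMSO replicate 2 RNASEH1-AS1 was at -0.24 (edgeR adjusted p = 0.0638). CEBPZ-AS1, which GENCODE lists as the protein-coding gene CEBPZOS, stood at 26.3, 30.1 and 28.1 CPM in DOX, against 34.3, 33.8 and 36.9 CPM in DMSO, at -0.31 (edgeR adjusted p = 0.000841), beside CEBPZ, whose product acts in ribosome building, at -0.49 (edgeR adjusted p = 5.61e-07). CEBPZ-AS1 was at -0.13 with GC content and length corrected (edgeR adjusted p = 0.0873).

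The other 5 falls depended on the scaling, and each ended both under upper-quartile scaling and when library size alone was used. RPA3-AS1, the coding gene UMAD1 in GENCODE, was at -0.24 (edgeR adjusted p = 0.0277) beside RPA3, a subunit of replication protein A, at -0.45 (edgeR adjusted p = 0.00011). DHRS4-AS1 was at -0.23 (edgeR adjusted p = 0.0221) beside the dehydrogenase gene DHRS4 at -0.19 (edgeR adjusted p = 0.0269), and DHRS4 has near-identical copies, so the split of reads is uncertain. PRKCQ-AS1 stood at 20.0, 20.1 and 18.4 CPM in DOX, against 21.9, 22.2 and 23.8 CPM in DMSO, at -0.22 (edgeR adjusted p = 0.0206), while PRKCQ, the kinase PKC theta of T cell receptor signalling, was at 0.00 (edgeR adjusted p = 0.989). NNT-AS1 stood at 23.8, 27.9 and 26 CPM in DOX, against 29.5, 27.2 and 35.2 CPM in DMSO, at -0.24 (edgeR adjusted p = 0.0247), with overlap between the groups, and the mitochondrial transhydrogenase gene NNT was at -0.09 (edgeR adjusted p = 0.206). PXN-AS1 stood at 4.82, 4.73 and 5.53 CPM in DOX, against 6.39, 6.65 and 5.85 CPM in DMSO, a log2 fold change of -0.33 (SE 0.116, edgeR adjusted p = 0.0348), while PXN, the focal adhesion protein paxillin, was higher at 0.23 (edgeR adjusted p = 0.00361). With GC content and length corrected the edgeR adjusted p of these antisense RNAs became 0.807 for RPA3-AS1, 0.189 for DHRS4-AS1, 0.225 for PRKCQ-AS1, 0.298 for NNT-AS1 and 0.0863 for PXN-AS1. Fits without 1 library, with fewer samples, also lost these calls, some at a log2 fold change (in parentheses) as large as with all samples. The edgeR adjusted p was 0.0621 lacking DOX 1 (-0.24), 0.0925 lacking DOX 3 (-0.22), 0.0917 lacking DMSO 2 (-0.20) and 0.0631 lacking DMSO 3 (-0.23) for RPA3-AS1, and 0.114 lacking DOX 1 (-0.18) and 0.0660 lacking DMSO 2 (-0.20) for DHRS4-AS1. It was 0.119 lacking DOX 3 (-0.18) and 0.0820 lacking DMSO 3 (-0.18) for PRKCQ-AS1, and 0.141 lacking DOX 1 (-0.18), 0.0600 lacking DOX 3 (-0.24) and 0.209 lacking DMSO 3 (-0.13) for NNT-AS1. It was 0.102 lacking DOX 1 (-0.30), 0.116 lacking DOX 2 (-0.28), 0.0909 lacking DMSO 1 (-0.32) and 0.102 lacking DMSO 2 (-0.29) for PXN-AS1. With all samples, the DESeq2 adjusted p was 0.0758 for RPA3-AS1, 0.0557 for DHRS4-AS1 and 0.113 for PXN-AS1, so DESeq2 did not call them.

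Antisense RNAs were also grouped by the broad role of the sense gene. The lists may share genes and may hold sense genes with other main roles. Each count is to be read beside the 13.8% of all tested genes that were higher and the 15.5% that were lower. Of 10 in the list for leukocyte and T cell genes, ITGB2-AS1 rose (10.0%) and PRKCQ-AS1 fell (10.0%). The median log2 fold change of the 10 was 0.07, against -0.00 for all genes. ITGB2-AS1, opposite the beta-2 integrin chain of leukocytes, stood at 11.2, 10.0 and 11.2 CPM in DOX, against 6.47, 7.73 and 8.25 CPM in DMSO, a log2 fold change of 0.53 (SE 0.101, edgeR adjusted p = 0.00032), with no overlap. ITGB2 was at 0.13 (edgeR adjusted p = 0.0935), and so did not pass the test. BZRAP1-AS1 was at 0.17 (edgeR adjusted p = 0.129), beside BZRAP1 at 0.45 (edgeR adjusted p = 6.59e-06). With upper-quartile scaling the edgeR adjusted p of BZRAP1-AS1 was 0.0488, and without DMSO replicate 2 it was 0.0110, at log2 fold changes of 0.22 and 0.28.

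Another list held 19 for genes of growth, translation, mitochondria, the proteasome or replication. Of these, PSMG3-AS1 and MCM3AP-AS1 rose and TMPO-AS1 and NNT-AS1 fell (10.5% each way, beside 13.8% and 15.5% of all genes), with a median of -0.04. PSMG3-AS1 had the smallest adjusted p of all the antisense RNAs. Its sense gene encodes a chaperone of proteasome assembly, and the antisense RNA stood at 13.8, 13.6 and 13.7 CPM in DOX, against 9.24, 10.3 and 9.61 CPM in DMSO, a log2 fold change of 0.50 (SE 0.0841, edgeR adjusted p = 9.62e-05). PSMG3 stood at 15.9, 17.6 and 16.5 CPM in DOX, against 17.4, 18.3 and 16.5 CPM in DMSO, at -0.07 (edgeR adjusted p = 0.549), with overlap between the groups. MCM3AP-AS1, opposite an mRNA export factor, was at 0.23 (edgeR adjusted p = 0.0234), with an edgeR adjusted p of 0.0660 lacking DOX 1 (0.22), 0.0909 lacking DOX 3 (0.21), 0.0767 lacking DMSO 1 (0.22) and 0.0645 lacking DMSO 2 (0.21), where the log2 fold change of the smaller fit is in parentheses. With all samples it was not called by DESeq2 (DESeq2 adjusted p = 0.0943) or with no filter on low counts (edgeR adjusted p = 0.0625).

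Of 20 in the list for genes of chromatin, DNA repair or transcription factors, GABPB1-AS1 rose and 0 fell by edgeR (beside 13.8% and 15.5% of all genes). The median of the 20 was 0.01. At an unadjusted p under 0.05 edgeR had 1 as lower, and DESeq2 and the authors' deposited table had 0. GABPB1-AS1, beside the gene of a subunit of the ETS factor GABP, stood at 10.4, 10.5 and 12.1 CPM in DOX, against 8.88, 9.17 and 9.26 CPM in DMSO, at 0.27 (edgeR adjusted p = 0.0258), with GABPB1 at -0.23 (edgeR adjusted p = 0.00386). Its call ended with GC content and length corrected (edgeR adjusted p = 0.0920), and the edgeR adjusted p was 0.168 lacking DOX 3 (0.20) and 0.0882 lacking DMSO 1 (0.25), with the log2 fold change of the smaller fit in parentheses. With all samples GABPB1-AS1 was not called by DESeq2 (DESeq2 adjusted p = 0.107) or with no filter on low counts (edgeR adjusted p = 0.0501). TRIM52-AS1 was at -0.20 (edgeR adjusted p = 0.0696) and HOXA-AS2 at 0.89 (edgeR adjusted p = 0.0866). TRIM52-AS1 passed the test as lower without DOX replicate 2 (edgeR adjusted p = 0.0200), without DMSO replicate 1 (0.0254) and with no filter on low counts (0.0231). Of 27 antisense RNAs that have been studied as noncoding RNAs in cancer, ITGB2-AS1, ASB16-AS1, MCM3AP-AS1 and GABPB1-AS1 rose and TMPO-AS1, NNT-AS1 and PXN-AS1 fell (14.8% and 11.1%, beside 13.8% and 15.5% of all genes), with a median of -0.05. ASB16-AS1 was at 0.27 (edgeR adjusted p = 0.00693), and had an edgeR adjusted p of 0.0530 lacking DOX 1 (0.21).

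Each antisense RNA was then set beside the sense gene of the same name stem. The stem named exactly 1 gene in the table for 240 antisense RNAs, none for 6 and several for 8. In GENCODE 29 (GRCh38), 235 of these pairs could be placed, all on opposite strands. Exons overlapped in 158 pairs, gene bodies alone in 29, and 48 did not overlap; in 104 pairs the starts lay within 1 kb. How the counting treated strand is not given in the sources used here, though the libraries were strand-specific, so reads of overlapping pairs cannot be told apart with certainty. Per kb of the longest transcript, the sense gene stood above the antisense RNA in DMSO in 184 of 221 tested pairs, with a median ratio of 7.36.

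In 225 pairs both genes were tested, with 220 distinct sense genes. Among these, 12 pairs had both genes higher, 5 had both lower, 4 had the antisense RNA higher and the sense gene lower, and PXN-AS1 with PXN was the 1 pair the other way round. The antisense RNA alone was called in 17 pairs as higher and 2 as lower, and the sense gene alone in 19 as higher and 33 as lower. Neither was called in 132. Of the 220 sense genes, 31 were higher (14.1%) and 41 lower (18.6%), beside 13.8% and 15.5% of all tested genes. Their median log2 fold change was -0.02. Spearman's rho between the log2 fold changes of antisense RNA and sense gene was 0.25 over the 225 pairs, 0.26 over 150 pairs with overlapping exons and 0.28 over 47 pairs without overlap. Both members of a pair come from the same libraries, so rho is given as a description.

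**Figure D3:**
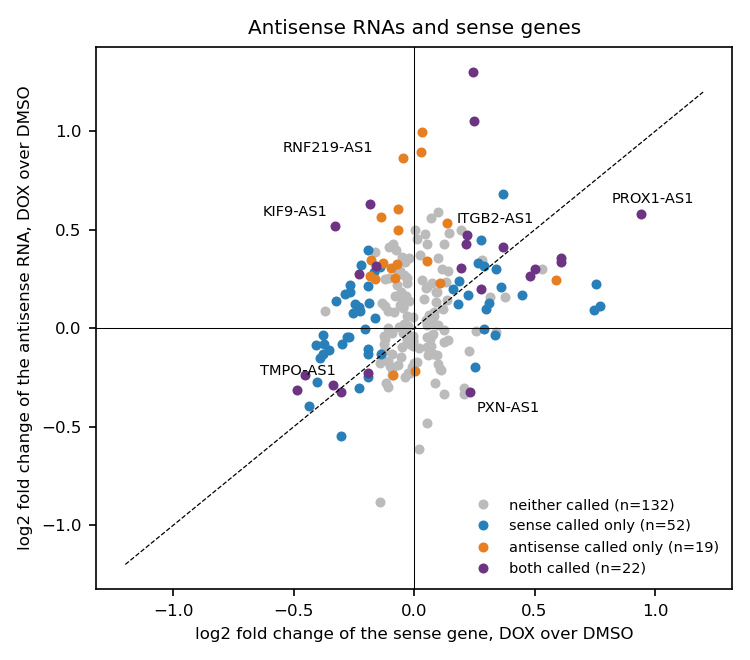
Log2 fold change, DOX over DMSO, of the antisense RNA (vertical axis) against that of its sense gene (horizontal axis) for 225 pairs; each point is a pair, the colour gives which gene was called, and the dashed line marks equal change. Of the pairs with only the sense gene called, 33 lie left of 0 and 19 right of it, and of those with only the antisense RNA called, 17 lie above 0 and 2 below it.

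The sense gene was called lower in 42 pairs, and the antisense RNA was lower too in 5 of them, higher in 4 and not called in 33. Over all 225 pairs, 33 antisense RNAs were higher (14.7%) and 8 lower (3.56%), with a median log2 fold change of 0.10. In the 42 pairs the sense genes had a median log2 fold change of -0.26 and the antisense RNAs of -0.04, and 19 antisense RNAs were above 0. In the 32 pairs with a sense gene called higher, the medians were 0.29 for sense genes and 0.25 for antisense RNAs, and 4 antisense RNAs were below 0. These pairs were picked by the sense gene's call, which by itself makes its median the more extreme. The medians are therefore given without a test. Among all tested genes, 0.828% with a mean log2 CPM under 0 and 1.76% with one between 0 and 2 were called lower. The part of level in the counts and medians of these pairs was not tested. Among pairs with a lower sense gene, EIF3J encodes a translation initiation factor and stood at 71.5, 80.7 and 75.3 CPM in DOX, against 97.1, 93.5 and 100.4 CPM in DMSO, at -0.36 (edgeR adjusted p = 3.49e-05). EIF3J-AS1 stood at 7.29, 7.59 and 8.15 CPM in DOX, against 8.17, 8.35 and 8.38 CPM in DMSO, at -0.11 (edgeR adjusted p = 0.414); its groups did not overlap either, but the difference did not pass the test. NIFK, a nucleolar protein, was at -0.38 (edgeR adjusted p = 9.42e-05) beside NIFK-AS1 at -0.08 (edgeR adjusted p = 0.641), and BOLA3, a factor of mitochondrial iron-sulphur assembly, at -0.39 (edgeR adjusted p = 0.000183) beside BOLA3-AS1 at -0.15 (edgeR adjusted p = 0.404). SLC25A5, the ADP/ATP carrier, was at -0.22 (edgeR adjusted p = 0.00134) beside SLC25A5-AS1 at 0.32 (edgeR adjusted p = 0.135). These 4 pairs were chosen after their values were seen.

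The ratio of the antisense to the sense count, taken within each sample as log2 of (antisense count + 1) over (sense count + 1), compares the pair without any scaling between libraries. It was higher in every DOX sample than in every DMSO sample in 41 of 225 pairs (18.2%), lower in 15 (6.67%) and overlapped in 169. The sense gene was called lower in 19 of the 41 and called higher in 9 of the 15. No such share was taken over other pairs of genes, so these counts cannot be read as particular to antisense RNAs. Among all tested genes the median log2 fold change was 0.18 under a mean log2 CPM of 0 and -0.05 over 4. The part of level in the ratios was not tested. With 3 samples against 3, the smallest two-sided p of an exact permutation test is 0.10, so no single ratio can pass 0.05. With GC content and length corrected, 52 of 221 pairs were higher and 5 lower, of which 37 and 5 were the same pairs and none had turned round.

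Of the pairs whose ratio was higher, 4 are named here from those with the largest differences of log2 fold change, antisense minus sense. RNF219-AS1 had the least spread among its DOX samples of these 4. Its log2 ratio to RNF219 was -2.39, -2.39 and -2.32 in DOX, against -3.65, -2.95 and -3.21 in DMSO, a difference of 0.90, while RNF219 itself was at -0.05 (edgeR adjusted p = 0.689). XXYLT1-AS2 had ratios of -4.58, -4.98 and -4.91 in DOX, against -5.57, -5.60 and -5.71 in DMSO, a difference of 0.80, with XXYLT1 lower at -0.18 (edgeR adjusted p = 0.0147). KIF9-AS1, opposite a kinesin gene, had ratios of -1.27, -0.96 and -1.34 in DOX, against -1.83, -1.97 and -2.31 in DMSO, a difference of 0.85. KIF9-AS1 was higher at 0.52 (edgeR adjusted p = 0.0226) and KIF9 lower at -0.33 (edgeR adjusted p = 0.0166). DESeq2 did not call KIF9-AS1 (DESeq2 adjusted p = 0.103). In fits without 1 library the edgeR adjusted p of KIF9-AS1 was 0.123 lacking DOX 2 (0.41), 0.0521 lacking DOX 3 (0.52) and 0.0914 lacking DMSO 3 (0.43), with its log2 fold change in parentheses. The log2 ratio of CACTIN-AS1 differed by 0.92. In PSMG3-AS1 the ratio was -0.21, -0.36 and -0.27 in DOX, against -0.91, -0.83 and -0.78 in DMSO, and in ITGB2-AS1 -2.84, -2.79 and -2.72 in DOX, against -3.45, -3.17 and -2.93 in DMSO.

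Of the 5 pairs with a lower ratio and the largest negative differences of log2 fold change, PXN-AS1 was the only one with a called antisense RNA. PXN-AS1 had ratios of -3.45, -3.44 and -3.14 in DOX, against -2.76, -2.74 and -2.87 in DMSO, a difference of -0.55; with GC content and length corrected neither gene was called. FLG-AS1 was at 0.11 (edgeR adjusted p = 0.850) beside FLG, the skin barrier protein filaggrin, which was at 1.63 to 2.39 CPM in DOX and 0.912 to 1.32 CPM in DMSO, at 0.77 (edgeR adjusted p = 0.00951). CCDC147-AS1 was at 0.09 (edgeR adjusted p = 0.859) beside CCDC147 at 0.75 (edgeR adjusted p = 0.0177). The direction of FLG-AS1 and CCDC147-AS1 was not stable in fits without 1 library. FLG-AS1 was at -0.08 lacking DOX 3 and -0.03 lacking DMSO 1. CCDC147-AS1 was at -0.19 lacking DOX 1 and -0.12 lacking DMSO 1. Each was above 0 in the other such fits. MED14-AS1, named after a Mediator subunit, was at -0.48 (edgeR adjusted p = 0.155) beside MED14 at 0.05 (edgeR adjusted p = 0.453), and SBF2-AS1 was at -0.30 (edgeR adjusted p = 0.0630) beside SBF2 at 0.21 (edgeR adjusted p = 0.0556). The differences of the log2 ratio were -0.67 for FLG-AS1, -0.67 for CCDC147-AS1, -0.54 for MED14-AS1 and -0.51 for SBF2-AS1. In the last 2 pairs neither gene was called. CACNA1C, a calcium channel gene, rose at 0.61 (edgeR adjusted p = 3.51e-05) with both of its antisense RNAs, CACNA1C-AS1 at 0.35 (edgeR adjusted p = 0.00366) and CACNA1C-AS2 at 0.34 (edgeR adjusted p = 0.0274), and both ratios were lower. CACNA1C-AS2 had an edgeR adjusted p of 0.0764 lacking DOX 1 (0.31), 0.0779 lacking DOX 2 (0.32), 0.0614 lacking DMSO 1 (0.35) and 0.0716 lacking DMSO 2 (0.31), with the log2 fold change of the smaller fit in parentheses. With all samples, CACNA1C-AS2 was not called by DESeq2 or with no filter on low counts. CACNA1C was chosen after its values were seen.

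**Figure D4:**
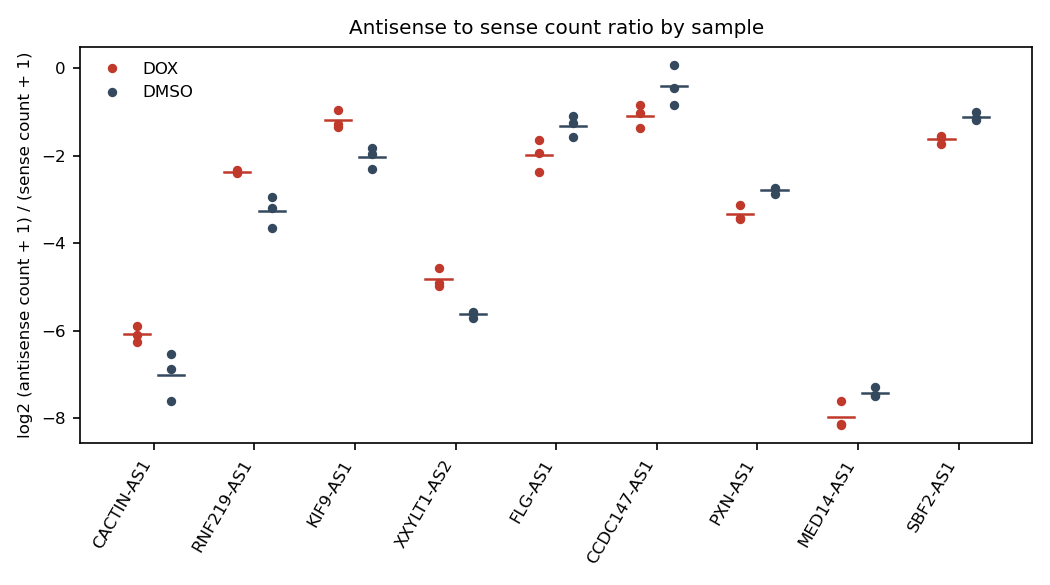
Log2 ratio of the antisense count to the sense count, each plus 1 (vertical axis), in pairs whose ratio did not overlap (horizontal axis). Shown are 4 of the 5 with the largest positive and the 5 with the largest negative difference of log2 fold change, antisense minus sense. DOX is left of DMSO, points are the 3 samples of a group and lines their means. In CACTIN-AS1, RNF219-AS1, KIF9-AS1 and XXYLT1-AS2 all DOX points lie above the DMSO points, and in the other 5 pairs below them, as the pairs were chosen for this.

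Pairs that start within 1 kb of each other, and so may share a promoter, were described apart. In 102 such tested pairs, 10 antisense RNAs were higher (9.80%) and 4 lower (3.92%), with a median log2 fold change of 0.08. Of the sense genes, 9 were higher (8.82%) and 19 lower (18.6%), with a median of -0.05. Shares in this paragraph are to be read beside the 13.8% of all tested genes that were higher and the 15.5% that were lower. Both genes were lower in 2 of these pairs, TMPO-AS1 and RNASEH1-AS1, and both higher in 1, and in 16 the sense gene alone was lower. The ratio was higher in 23 and lower in 7, beside 41 and 15 of all 225 pairs, which include these. In 119 pairs with starts farther apart, 22 antisense RNAs were higher (18.5%) and 4 lower (3.36%). Of their 117 sense genes 22 were higher and 22 lower (18.8% each). The difference between near and far pairs was not tested. By overlap, 24 antisense RNAs were higher (16.0%) and 7 lower (4.67%) in the 150 pairs with overlapping exons (median 0.13). In the 47 pairs without overlap 5 were higher (10.6%) and 1 lower (2.13%), with a median of 0.01.

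The members nearest the limit of 60 counts were KCNJ2-AS1 with 60, HOXA-AS2 with 61 and PHKA2-AS1 with 61, and just outside it were RNASEH2B-AS1 with 59, HMGN3-AS1 with 58 and TNKS2-AS1 with 58. The sum runs over both groups, so a rare gene could reach it through the group where it was higher, and 4 genes with such names below it were tested as well.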

How the data were processed

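Strand-specific libraries of total RNA were read from both ends at 100 bases, per the labels' protocols. STAR 2.5.2a, featureCounts, DESeq2 1.12.4 and hg19 are named per the submitters' processing notes without roles; neither the annotation nor the strand setting of the counting was stated there. The authors deposited raw read counts per gene. Their deposited comparison table holds per gene the normalized mean as a signal, log2 fold changes, their standard errors, the Wald score and p-values, and only its counts of calls are used.

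Genes were filtered with filterByExpr, scaled with TMM and tested by the quasi-likelihood method of edgeR 4.0.16 (with limma 3.58.1 under R 4.3.3), treatment the sole term, on all 15492 genes, with Benjamini-Hochberg adjusted p under 0.05 as a call. Fold changes are DOX over DMSO. SE is the size of the log2 fold change over the square root of F. The correction for GC content and length used splines with 5 degrees of freedom per library on GENCODE 29 transcripts, fitted on genes with mean log2 CPM above 2, and removes true changes that follow GC content as well. DESeq2 1.42.0, other scalings and filters, a replicate block and leaving out each sample were alternatives, 13 in all. No batch is named in the labels.

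The antisense RNAs, the gene lists and the pairs were chosen with earlier results of these data known. The text names MYC, the 8 highest antisense RNAs, the 10 largest rises and up to 8 largest falls among calls without overlap, and the 3 with the smallest p per list. Among pairs whose ratio did not overlap between groups, it names the 5 largest differences of log2 fold change, antisense minus sense, each way. Others were picked with their values in view. A few selected genes are not reported here. Gene identifiers matched 250 of 254 antisense RNAs in GENCODE 29, where some carry another name.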

Additional observations from a re-analysis of the deposited data

How the results depend on the processing

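Under the 13 alternatives no call changed sign. Higher antisense RNAs numbered 37, and 40 with upper-quartile scaling, 39 by library size alone, 37 with a filter at a summed count of 60, 36 with GC content and length corrected, 26 with no filter and 13 with DESeq2, which gave no adjusted p for 5 of the 37. Lower ones numbered 8, and 3 with upper-quartile scaling, 3 by library size alone, 5 with DESeq2, 5 with GC content and length corrected and 10 with no filter. Leaving out 1 sample gave 20 to 27 higher (20 without DOX replicate 1, 22 without DMSO replicate 1) and 4 to 9 lower (4 without DMSO replicate 2, 5 without DOX replicate 3), with fewer samples in each fit. The calls held in all 13 were 10 rises (MMP24-AS1, HHIP-AS1, PSMG3-AS1, CACNA1C-AS1, ITGB2-AS1, TNRC6C-AS1, EXTL3-AS1, XXYLT1-AS2, RNF219-AS1 and LENG8-AS1) and TMPO-AS1. The median log2 fold change, 0.11, was 0.16 with upper-quartile scaling, 0.15 by library size alone, where the medians of all genes were 0.05 and 0.04, and 0.18 with GC content and length corrected; without 1 sample it was 0.09 to 0.11. Pairs whose ratios did not overlap, 41 higher and 15 lower, became 52 and 5 with GC content and length corrected, and 54 to 58 and 21 to 31 without 1 sample (31 without DOX replicate 1, 23 without DOX replicate 2), since fewer samples overlap less. A limit of 30 counts gave 297 antisense RNAs and a limit of 120 gave 200. With the replicate number as a block, 34 were higher, 8 lower, and the median was 0.11. Same-numbered samples did not deviate together (correlations of -0.04, -0.05 and 0.01). With 3 samples a group this cannot show whether the numbers stand for shared cultures or batches, and the labels do not say. The 76 antisense RNAs under 1 CPM rest on few counts.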

Other observations

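Long intergenic noncoding RNAs named LINC and a number, chosen by the same limit of 60 counts, give a comparison with other noncoding genes. Of 106 tested, 17 were higher and 6 lower in DOX (edgeR adjusted p under 0.05; 16.0% and 5.66%, beside 13.8% and 15.5% of all tested genes), with a median log2 fold change of 0.14, against 37 and 8 of 249 antisense RNAs with a median of 0.11. The difference between both kinds was not tested.

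In GENCODE 29, 178 of the antisense RNAs are typed as antisense, 33 as lincRNA, 27 as processed transcript and 3 as bidirectional promoter RNA. Protein-coding is the type of 5 (CEBPZ-AS1, MMP24-AS1, RPA3-AS1, NCBP2-AS2 and TOPORS-AS1). Another 3 are transcribed unitary pseudogenes and 1 is a transcribed unprocessed pseudogene, while 4 were not matched. A divergent transcript name is carried by 40 in RefSeq or GENCODE 29. Of these 5 coding genes, MMP24-AS1 rose and CEBPZ-AS1 and RPA3-AS1 fell, while NCBP2-AS2 was at -0.11 (edgeR adjusted p = 0.199) and TOPORS-AS1 at -0.30 (edgeR adjusted p = 0.442). HHIP-AS1, at 0.31 (edgeR adjusted p = 0.00294), and TNRC6C-AS1, at 0.48 (edgeR adjusted p = 0.00519), also rose in all 13 alternative fits, and were chosen after their values were seen.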
